A study of Homo sapiens with 16 samples.

Results

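Long noncoding RNAs (lncRNAs) are transcripts that act without being translated, and several of the most abundant ones are linked to cancer. The 10 genes described here were MALAT1, NEAT1, NORAD, KCNQ1OT1, TUG1, PVT1, PCGEM1, PCAT1, PCA3 and GAS5, chosen by name. Every merged m6A region and every peak inside the annotated span of each gene (GENCODE on GRCh38, hg38) was taken. That annotation types TUG1 as protein coding and the other genes as lncRNA, and TUG1 is counted with the lncRNAs here. The spans held 48 of the 36970 merged regions and 255 of the 191974 peak summits in 8 peak lists. PCGEM1 and GAS5 held no region and no peak.

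N6-methyladenosine (m6A) is a methyl mark on RNA that is placed by the METTL3 and METTL14 complex, mostly within the DRACH sequence, and is bound by YTH domain proteins. On lncRNAs it is known to alter RNA folding, protein binding and turnover. MALAT1 lies in nuclear speckles, NEAT1 is the scaffold of paraspeckles, and NORAD is a cytoplasmic RNA linked to genome stability. KCNQ1OT1 is an imprinted antisense transcript, TUG1 and PVT1 are widely expressed in tumours, and PCA3, PCAT1 and PCGEM1 are known from prostate cancer.

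The samples were RNA of 2 human prostate cancer lines harvested on day 3 of growth. C4-2B is sensitive to enzalutamide, an antiandrogen drug, and MDV-R is a resistant line derived from C4-2B by serial passage and kept in 5 µM enzalutamide, so line and drug exposure cannot be told apart. Each line had 4 replicates with an m6A antibody library (IP) and an input library of total RNA, and the labels do not say whether replicates were separate cultures, so p-values measure the spread between these samples, which may be technical. The MDV-R titles also name a bladder line, so the group was read from the field for the cell line. MDV-R is 1 derived line. All 8 prostate luminal marker genes examined held a region with its summit in their own exons, and HOXB13 held 2 that were called in all 8 lists. None of the 7 urothelial and basal markers held an exonic region, although a region within UPK2 but outside its exons was called in all 8 lists. Of 3 fibroblast markers, COL1A1 held 1 exonic region, which 1 list of C4-2B and 2 of MDV-R contained.

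One library stood apart from the rest. The list of C4-2B replicate 1 held 13191 peaks against 23254 to 30645 in the other 7 lists, and it contained no peak in MALAT1, NEAT1 or KCNQ1OT1. Of the 17 lncRNA regions called in all 7 other lists, 7 were not called in this one, a share of 41.2% against 24.3% for all merged regions. The IP libraries held between 863500 and 1206000 tags (reads kept by the authors), as recovered from the peak values. The recovery also gave the IP tags at each summit, scaled to the library's total in the counts-per-million unit (CPM), and the local background, which comes from the input and is written as a multiple of the library's average background. In bulk RNA, less RNA per cell and fewer cells with the RNA cannot be told apart.

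Each sequence below runs from 50 nt before to 50 nt after the strongest summit, on hg38. The first 6 belong to the regions of NORAD, TUG1 and PCA3 called in all 8 lists, and the last 3 were added because they mark the sites of MALAT1 and NEAT1 that the results turn on. Capitals mark GGAC, the commonest core of the m6A motif. The windows of TUG1 region 1 and of PCA3 regions 1 and 4 are shown on the strand of MORC2 and of PRUNE2, whose exons hold those summits, and the others on the strand of the lncRNA.
NORAD region 1 (chr20:36050474-36050574, minus strand): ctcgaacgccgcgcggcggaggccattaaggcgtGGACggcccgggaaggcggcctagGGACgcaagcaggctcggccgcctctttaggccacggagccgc
TUG1 region 1 (chr22:30968590-30968690, minus strand): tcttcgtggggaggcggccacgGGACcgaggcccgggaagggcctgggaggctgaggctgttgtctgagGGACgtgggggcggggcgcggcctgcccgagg
TUG1 region 2 (chr22:30971381-30971481, plus strand): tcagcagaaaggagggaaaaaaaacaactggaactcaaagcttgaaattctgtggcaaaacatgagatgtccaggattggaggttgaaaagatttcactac
TUG1 region 4 (chr22:30975452-30975552, plus strand): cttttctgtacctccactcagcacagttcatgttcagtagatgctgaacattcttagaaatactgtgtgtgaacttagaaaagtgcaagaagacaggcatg
PCA3 region 1 (chr9:76703593-76703693, minus strand): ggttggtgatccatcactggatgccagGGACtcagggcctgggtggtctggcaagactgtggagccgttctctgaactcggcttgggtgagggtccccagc
PCA3 region 4 (chr9:76710961-76711061, minus strand): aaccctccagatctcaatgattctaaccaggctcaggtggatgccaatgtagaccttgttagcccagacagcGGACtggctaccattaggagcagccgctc
MALAT1 at position 2848 (chr11:65500437-65500537, plus strand): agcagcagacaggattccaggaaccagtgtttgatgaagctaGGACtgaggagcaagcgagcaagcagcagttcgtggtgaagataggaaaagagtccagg
MALAT1 at position 5221 (chr11:65502810-65502910, plus strand): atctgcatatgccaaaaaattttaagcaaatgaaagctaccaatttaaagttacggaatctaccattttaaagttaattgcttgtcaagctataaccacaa
NEAT1 at position 1589 (chr11:65424336-65424436, plus strand): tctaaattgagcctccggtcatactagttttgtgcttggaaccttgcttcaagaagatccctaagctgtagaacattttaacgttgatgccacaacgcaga

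GGAC was found on the transcript strand within 50 nt of the summit in 9 of the 23 lncRNA regions whose summit lay in an exon of the lncRNA, or 39.1% (exact Clopper-Pearson 95% interval 19.7% to 61.5%). Over all 18909 regions with the summit in an exon of 1 strand the share was 45.7%, which lies inside that interval. DRACH, in which D is A, G or T, R is A or G and H is A, C or T, contains GGAC when A, C or T follows it, and was found in 20 of the 23 windows (87%) against 88.5% of all such regions. The windows at NORAD region 1 and at MALAT1 position 2848 held GGAC at 10 nt and 6 nt from the summit, and those at TUG1 regions 2 and 4, at MALAT1 position 5221 and at NEAT1 position 1589 held none. Each of the latter held DRACH, with 3 matches in each TUG1 window, 1 at MALAT1 position 5221 and 2 at NEAT1 position 1589, whereas both GGAC of NORAD region 1 are followed by G and its window held no DRACH. A match is a description of the sequence and does not place the methylated base.

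Of the 48 regions, 47 were called in at least 1 list, meaning that a peak overlapped them. TUG1 held 3 of the regions called in all 8 lists, PVT1, PCAT1 and PCA3 held 2 each, and NORAD held 1. These 10 regions made up 21.3% of the 47, beside 25.9% of the 36076 regions called anywhere and 27.9% of those with their summit in an exon of another lncRNA. The 47 also include summits in introns and in exons of other genes. Of the 23 called regions with their summit in an exon of the lncRNA itself, 6 were called in all 8 lists. A further 7 regions, in MALAT1, NEAT1, KCNQ1OT1, TUG1, PVT1 and PCA3, were called in all 4 MDV-R lists and in 3 C4-2B lists, and each of them was missed by C4-2B replicate 1. KCNQ1OT1 region 1 overlapped no peak of any list.

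**Figure D1:**
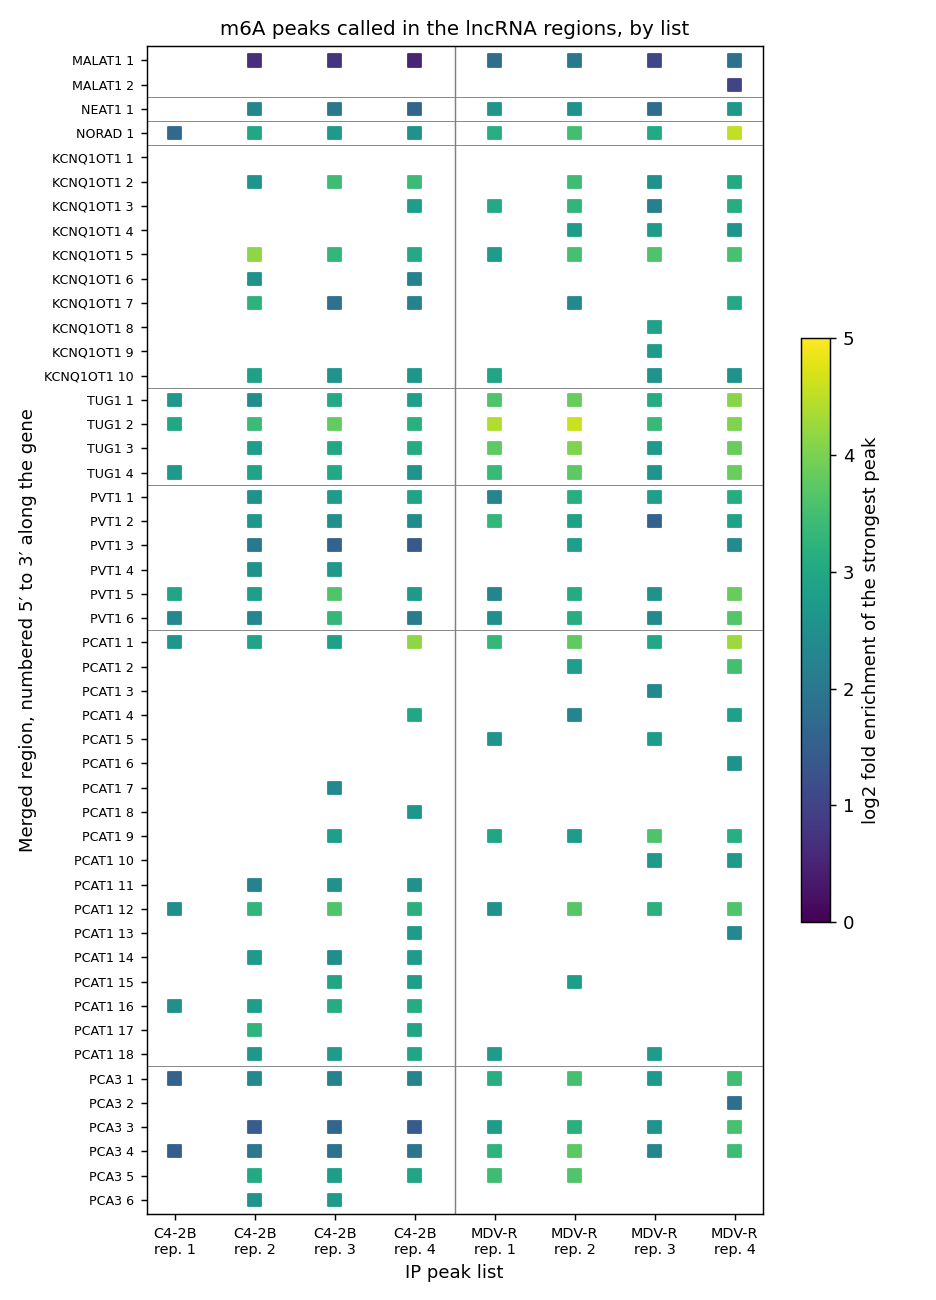
Calls of the 48 lncRNA regions (rows, numbered 5′ to 3′ along each gene) in the 8 peak lists (columns). A square marks a region overlapped by a peak and its colour gives the log2 fold enrichment of the strongest peak; the first column, C4-2B replicate 1, is empty for MALAT1, NEAT1 and KCNQ1OT1, and 10 rows are filled in all 8 columns.

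Span membership did not equal membership in the transcript, because several spans cross other genes and the peak lists carry no strand. In 20 regions the summit lay in exons of the lncRNA alone, in 4 it lay in exons shared with another gene, in 6 it lay in exons of another gene only, and in 18 it lay in an intron. KCNQ1OT1 region 1, which overlapped no peak, was placed among the 20 by its midpoint. The KCNQ1OT1 regions, all among the 20, also lie within KCNQ1 on the opposite strand. Exons of the antisense gene TALAM1 cover both MALAT1 summits. PCAT1 is annotated over 862728 nt and also spans LRATD2, POU5F1B and other lncRNA genes, among them CASC19 and CASC8. Of its 18 regions, 3 had their summit in one of its exons. PCA3 lies antisense within PRUNE2, and of its 6 regions 3 had their strongest summit in PRUNE2 exons only. TUG1 region 1 had its summit at -605 nt from the start of TUG1, in an exon of MORC2, which runs the other way. That summit lies outside the annotated TUG1 span, although the region reaches into it. Where the lncRNA and another gene overlap at a summit, signal from the lncRNA and from the overlapping gene cannot be told apart.

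Along the transcripts, summits were grouped into sites where they lay under 150 nt apart (positions are counted from 1 at the 5′ end of the Ensembl canonical transcript). NORAD, a single exon of 5401 nt, carried 1 peak per list. Its summit lay at positions 486 to 584 in 2 C4-2B and all 4 MDV-R lists, and at 847 and 879 in C4-2B replicates 1 and 4, and the strongest was at 495, or 9.16% of the length. TUG1, of 7474 nt in 3 exons, carried between 3 and 8 peaks per list. Its strongest summits were at position 2167 in the first exon, 2949 in exon 2 and 3581 in exon 3, and summits near 2167 and 3581 were found in all 8 lists. NEAT1, of 22743 nt, carried peaks only near positions 173 and 1589, the latter at 6.99% of its length.

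MALAT1, a single exon of 10434 nt, showed a different set of summits in each line. A summit near position 2848 was present in every list but that of C4-2B replicate 1. A summit near position 1943 was present in the same 3 C4-2B lists and in no MDV-R list, but peaks of all 4 MDV-R lists covered that position. The summit near position 5221 was present in all 4 MDV-R lists, and no C4-2B peak covered it. There the MDV-R fold enrichments lay between 1.56 and 4.03 and the IP levels between 208 and 248 CPM. A position without a peak has no value in the lists, so the C4-2B level at 5221 is not known, and the site was picked out after its values were seen.

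**Figure D2:**
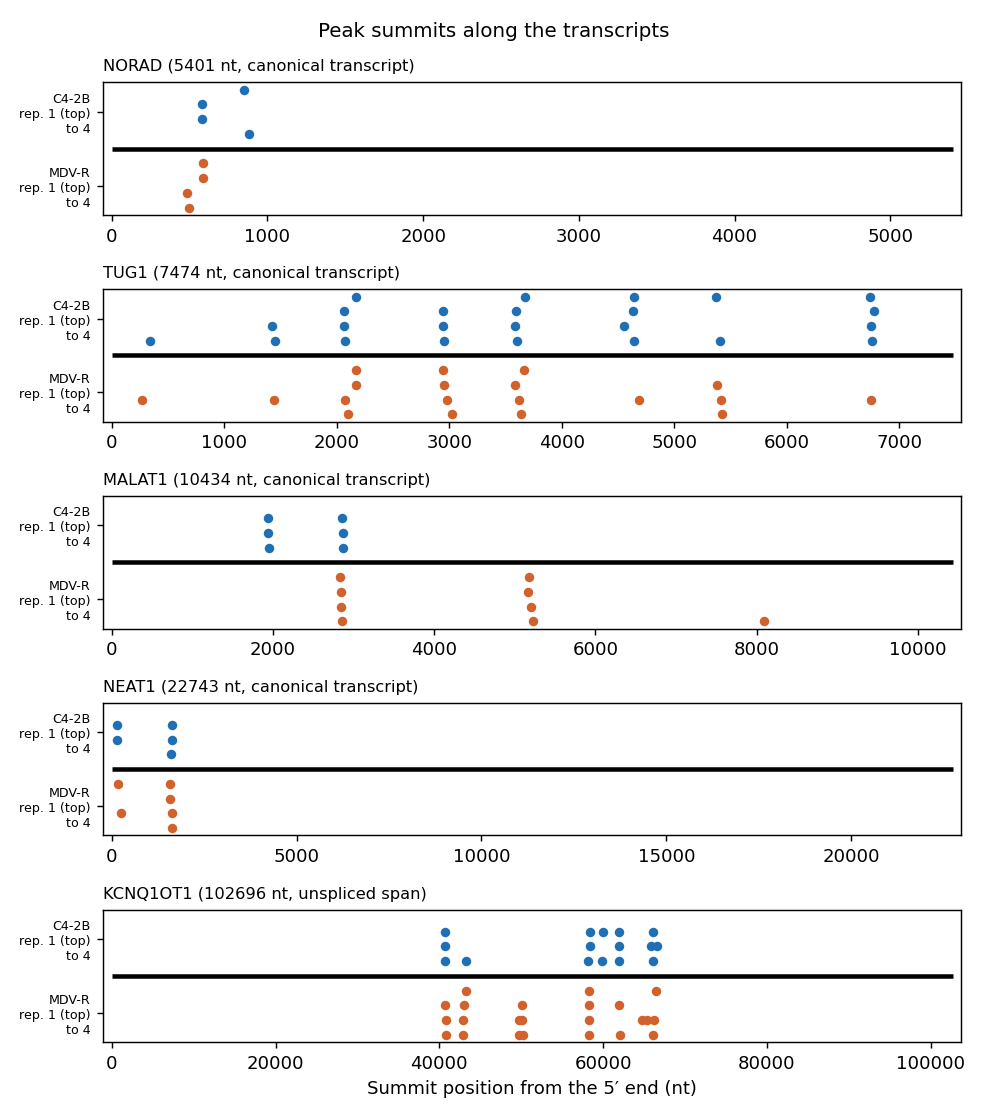
Peak summits (points) of each list along NORAD, TUG1, MALAT1, NEAT1 and KCNQ1OT1, in nt from the 5′ end, with C4-2B (blue) above and MDV-R (orange) below the line that marks the transcript (the unspliced span for KCNQ1OT1). MALAT1 shows points near 1943 in 3 C4-2B lists and near 5221 in the 4 MDV-R lists, and NEAT1 shows none beyond the first 2 sites at 173 and 1589.

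KCNQ1OT1 held 10 regions, all at 31273 to 66506 nt along its unspliced transcript of 91667 nt and none on its spliced canonical transcript of 679 nt. They were weak in tags: where called, their strongest peaks held 5.79 to 22.8 IP CPM. KCNQ1OT1 region 5 held the highest of these levels and was missed by C4-2B replicate 1 only. Its fold enrichment was 17.8, 9.79 and 8.23 in C4-2B replicates 2 to 4 and 6.70, 11.6, 12.2 and 11.7 in MDV-R replicates 1 to 4, so the lines overlapped. Region 3 was called in 1 C4-2B list and in all 4 MDV-R lists. It held 12.2, 15.9, 11.7 and 18.96 CPM in MDV-R replicates 1 to 4 and 10.4 in C4-2B replicate 4, at summits up to 426 nt apart. Peaks of all 4 MDV-R lists and of no C4-2B list covered the site near 2657014. The site near 2656773, which gave the C4-2B value, was covered by 1 list of each line. All KCNQ1OT1 regions lie within KCNQ1, which runs the other way, and the strongest summits of the called ones lay outside KCNQ1 exons.

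Fisher's exact test compared the number of lists with a call between lines. A single lncRNA region, PCAT1 region 16, was called in all lists of 1 line (C4-2B) and none of the other, or 2.13% of the 47 regions beside 4.90% of all called regions. It is intronic, at chr8:127182755-127184114, and also lies within CASC19 on the opposite strand, so signal from the 2 genes cannot be told apart. The region held 7.46, 8.92, 10.7 and 16.2 IP CPM in C4-2B replicates 1 to 4. These values came from summits up to 771 nt apart. Peaks of 3 C4-2B lists covered the site near 127183156 and peaks of 3 covered the site near 127183927, so no single site was called in all 4. The region's exact Fisher p of 0.0286 is the smallest that 4 against 4 lists allow. After Benjamini-Hochberg adjustment over 36076 regions no region passed (smallest adjusted p = 0.584 by Fisher's exact test), while 1766 had an unadjusted p under 0.05. Calls in all 4 C4-2B lists and at most 1 MDV-R list were again this 1 region (2.13% against 1.71% of all). Calls in all 4 MDV-R lists and at most 1 C4-2B list were found in KCNQ1OT1 region 3 and PCAT1 region 9 (4.26% against 6.29% of all). PCAT1 region 9, also intronic, had 9.99, 10.6, 16.6 and 12.3 CPM in MDV-R replicates 1 to 4 and 8.58 in C4-2B replicate 3.

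The number of peaks with their summit inside the 10 spans did not separate the lines. It was 14, 36, 38 and 41 in C4-2B replicates 1 to 4 and 25, 30, 37 and 34 in MDV-R replicates 1 to 4. C4-2B averaged 32.3 ± 12.3 peaks per list and MDV-R 31.5 ± 5.2 (SD, n = 4 each), a difference of -0.75 (two-sided exact permutation p = 0.943, where the smallest possible is 0.0286). Without C4-2B replicate 1 the difference was -6.83 peaks. As a share of the list, C4-2B averaged 0.148% ± 0.0305 and MDV-R 0.117% ± 0.0174 (SD, n = 4 each). A count of peaks is not a count of sites, because a long peak can cover several summits. In TUG1, a peak of 3799 nt in MDV-R replicate 1 covered a stretch where C4-2B replicate 4 had several summits.

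Strength was compared between lines with limma on the log2 scale, each list centred on its median over the regions called in all 8 lists, and the 10 lncRNA regions among them were the ones that could be tested in full. Before centring, the median region was higher in MDV-R by 0.44 in log2 fold enrichment and lower by 0.48 in log2 background, so differences below are relative to that shift. For fold enrichment 1 of the 10 lncRNA regions passed an adjusted p of 0.05, beside 2.64% of 9327 regions tested. For IP CPM 7 of 10 passed (2 higher and 5 lower in MDV-R) beside 50.2% of 9326, and for the local background 4 of 10, all lower, beside 12.8%. By summit, 5 of the 10 lay in exons of the lncRNA alone and 1 in exons shared with another gene. Another 3 lay in exons of another gene only, and 1 lay in an intron. The fold enrichment call was PCA3 region 4, over a PRUNE2 exon. The higher IP calls were TUG1 region 1, over a MORC2 exon, and PCAT1 region 1, over exons of LRATD2 and PCAT1. The lower IP calls included PCA3 regions 1 and 4. Over all regions 79 fold enrichments rose and 167 fell, which became 318 and 21 without centring, while 555 backgrounds rose and 642 fell, which became 155 and 1022, and 2169 IP levels rose and 2517 fell, which became 1844 and 1369. The median log2 difference over the 10 was 0.28 in fold enrichment, -0.40 in IP tags and -0.44 in background, against 0.03, -0.02 and 0.01 over all regions. In a wider fit over the regions called in at least 2 lists of each line, which left out libraries without a peak and is an alternative to the main one, 23 lncRNA regions could be tested. There 2 passed in fold enrichment (2.32% of all 16532), 10 in IP tags (41.7%) and 6 in background (9.37%). The strongest peak of a region could lie at different sites in different lists, so the fits were repeated at 1 summit site per region, an alternative chosen after the data were seen. Of 8 lncRNA regions with that site in all 8 lists, 0 passed in fold enrichment by limma (3 at an unadjusted p under 0.05; 2.51% of 7463 regions passed), 6 in IP tags (50.5%) and 4 in background (12.3%). Of 23 with the site in at least 2 lists of each line, 1 passed in fold enrichment, PCA3 region 3 (1.78% of 15693 regions passed), 10 in IP tags (41.8%) and 6 in background (8.57%).

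**Figure D3:**
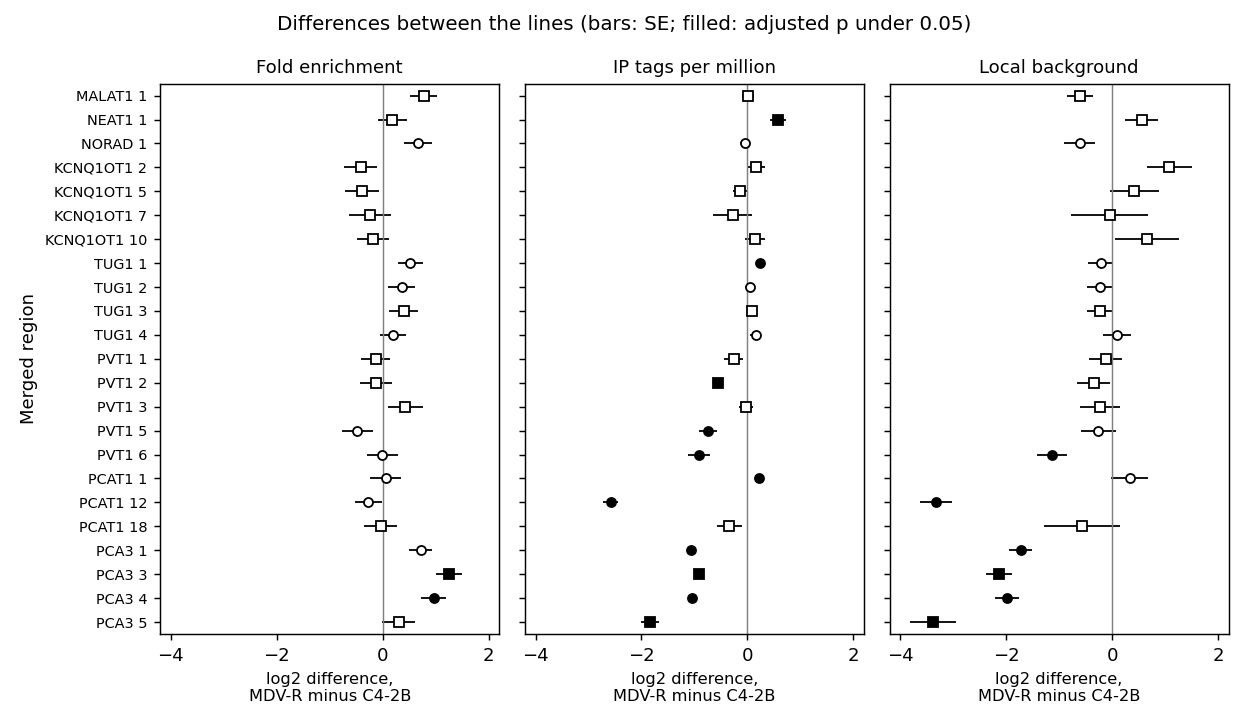
Log2 difference, MDV-R minus C4-2B, in fold enrichment, IP CPM and local background for the 23 lncRNA regions called in at least 2 lists of each line; bars are SE and filled symbols have an adjusted limma p under 0.05. Circles are regions called in all 8 lists and squares come from the wider fit; PCAT1 region 12 lies farthest below 0 in IP tags, at -2.58, and PCA3 regions lie below 0 in IP tags and background but at or above 0 in fold enrichment.

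PCAT1, a lncRNA known from prostate cancer, gave the largest line difference in IP level among these regions. PCAT1 region 12 (chr8:127019394-127021040), whose summit lies in exons of PCAT1 alone at position 1151 of its longest transcript of 1992 nt, held 70.5, 95.1, 90.03 and 105 IP CPM in C4-2B replicates 1 to 4. In MDV-R replicates 1 to 4 it held 11.1, 20.2, 16.6 and 16.7, all below the lowest C4-2B value. The local background was 36.1, 26.9, 18.8 and 32.2 times the library average in C4-2B and 3.03, 1.77, 2.79 and 1.00 in MDV-R. A background cannot fall below the library average, so the MDV-R values lie at or near the lowest possible. The size of the background difference is therefore uncertain.

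IP tags in PCAT1 region 12 were 6-fold lower in MDV-R (log2 difference -2.58 ± 0.14 SE, n = 4 per line, limma adjusted p = 4.21e-07) and the background was also lower (-3.32 ± 0.29 SE, limma adjusted p = 0.000284). The fold enrichment in the lists is taken after 1 tag is added to both terms, which lowers it most where the background is low, as in MDV-R here, and it overlapped between the lines. It was 5.45, 9.66, 12.4 and 8.97 in C4-2B and 5.76, 12.9, 9.20 and 12.3 in MDV-R replicates 1 to 4, a log2 difference of -0.27 ± 0.26 SE (limma adjusted p = 0.627) that was 0.13 without centring. A second exonic region of the same transcript, PCAT1 region 11 at position 353, was called in 3 C4-2B lists with 64.4 to 72.9 CPM and in no MDV-R list. PCAT1 region 1, whose summit lies in exons of both LRATD2 and PCAT1, went the other way, with 136 to 174 CPM in C4-2B and 187 to 202 in MDV-R (log2 difference 0.22 ± 0.08 SE, limma adjusted p = 0.0355), a call that was lost in the wider fit (limma adjusted p = 0.0607), with replicate numbers as a block (limma adjusted p = 0.0554), without centring (limma adjusted p = 0.122) and without any 1 library other than C4-2B replicate 1 and MDV-R replicate 3 (highest limma adjusted p = 0.0949).

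PVT1, a host of microRNAs beside MYC, held 2 regions called in all 8 lists. PVT1 region 6, in an exon at chr8:128031909-128032516, had 27.4, 35.7, 49.3 and 35.9 IP CPM in C4-2B replicates 1 to 4 and 13.3, 25.5, 18.5 and 27.9 in MDV-R replicates 1 to 4, so that only MDV-R replicate 4 passed the lowest C4-2B value. The log2 difference was -0.91 ± 0.21 SE in IP tags (limma adjusted p = 0.00463) and -1.14 ± 0.28 SE in background (limma adjusted p = 0.0289). The background call was lost without C4-2B replicate 2 or 4 or MDV-R replicate 1, 3 or 4 (limma adjusted p = 0.0677 to 0.0887). In fold enrichment the difference was -0.01 ± 0.29 SE (limma adjusted p = 0.995), and 0.40 without centring. The intronic PVT1 region 5 had 41.4 to 55.6 CPM in C4-2B and 19.98 to 40.9 in MDV-R, without overlap (log2 difference -0.74 ± 0.16 SE, limma adjusted p = 0.00379), while its background did not pass the test. In the wider fit PVT1 region 2, in exon 3 of the canonical transcript, was also lower in IP tags (-0.55 ± 0.09 SE, limma adjusted p = 0.00196, 3 C4-2B and 4 MDV-R lists).

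**Figure D4:**
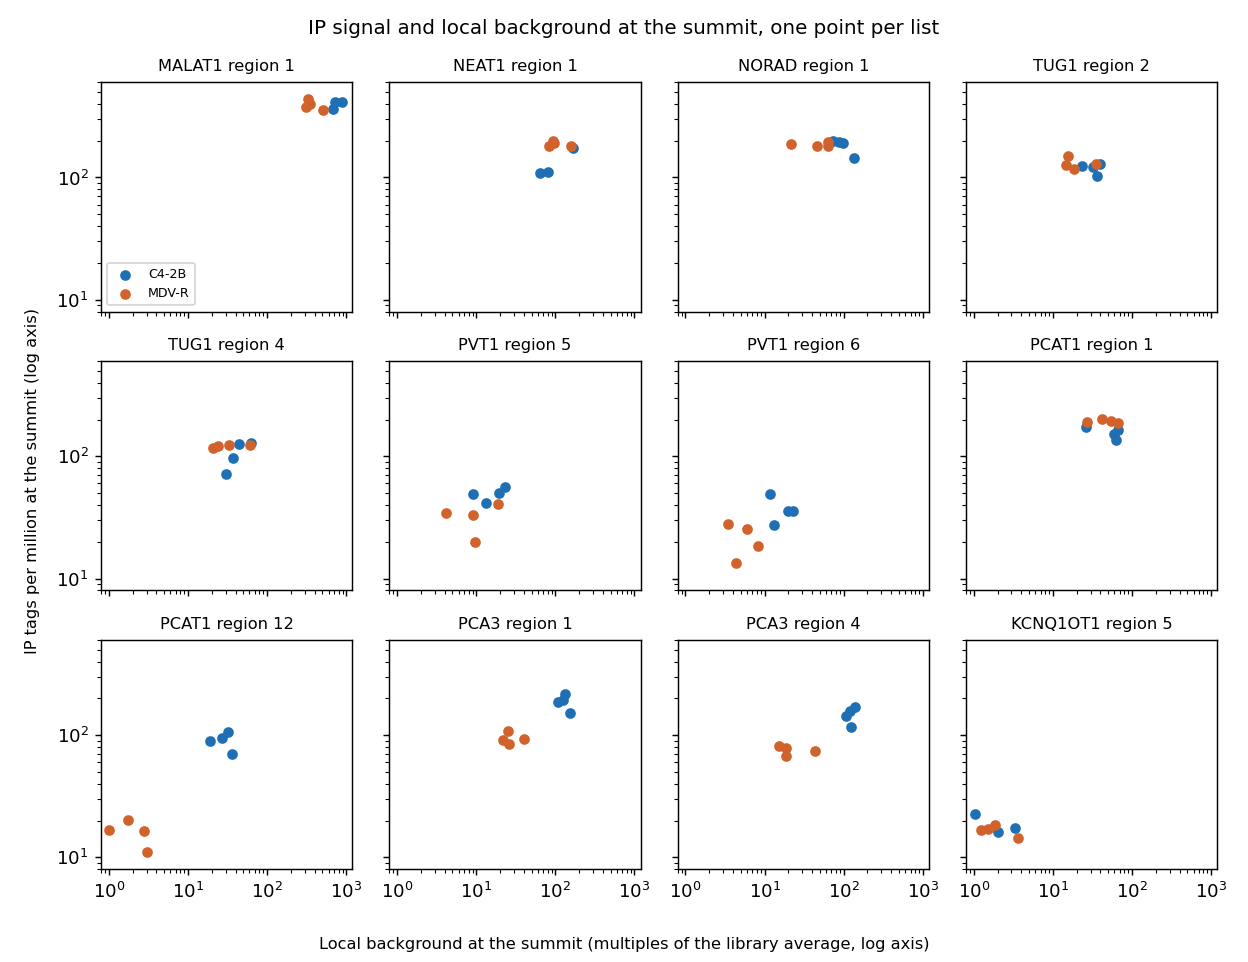
IP CPM against local background at the summit (both log axes; background in multiples of the library average) for 12 lncRNA regions, 1 point per list that called them, C4-2B in blue and MDV-R in orange. PCAT1 region 12 and PCA3 regions 1 and 4 shift down and to the left in MDV-R, whereas MALAT1 shifts to the left at a level of 359 to 441 CPM.

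PCA3, a transcript used as a urine marker of prostate cancer, had its highest IP levels in regions 1, 3 and 4, whose strongest summits lie in PRUNE2 exons. All PCA3 regions, the intronic ones included, lie within PRUNE2. PCA3 region 4 (chr9:76708000-76711344) had a background of 125, 107, 137 and 121 times the library average in C4-2B replicates 1 to 4 and 18.5, 15.4, 43.3 and 18.6 in MDV-R replicates 1 to 4. Its IP level was 118, 145, 169 and 158 CPM in C4-2B and 67.7, 81.8, 74.0 and 79.2 in MDV-R. Both measures were lower in all 4 MDV-R lists than in any C4-2B list.

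Background in PCA3 region 4 differed by -1.99 ± 0.23 SE (limma adjusted p = 0.000779) and IP tags by -1.04 ± 0.08 SE (limma adjusted p = 5.06e-06). Fold enrichment was higher in MDV-R, with 2.78, 3.97, 3.64 and 3.84 in C4-2B and 9.44, 13.4, 4.87 and 10.97 in MDV-R replicates 1 to 4. The log2 difference was 0.96 ± 0.24 SE (limma adjusted p = 0.0385), and no other fold enrichment among the 10 passed. These values came from summits up to 2189 nt apart within the region. At the site near 76708828, which had a summit in all 8 lists, fold enrichment was 2.18, 3.27, 3.64 and 3.09 in C4-2B and 7.21, 8.22, 3.502 and 10.97 in MDV-R replicates 1 to 4, so that MDV-R replicate 3 lay within the C4-2B range, and the difference of 0.79 ± 0.24 SE did not pass (limma adjusted p = 0.0877). IP tags (-1.09 ± 0.07 SE, limma adjusted p = 8.39e-07) and background (-1.85 ± 0.21 SE, limma adjusted p = 0.00075) were still lower in MDV-R at that site. The adjusted p for fold enrichment in the region was 0.0704 to 0.13 when any 1 library other than MDV-R replicate 3 was left out. PCA3 region 1 showed the same order, with log2 differences of -1.06 ± 0.08 SE in IP tags (limma adjusted p = 3.93e-06), -1.73 ± 0.21 SE in background (limma adjusted p = 0.00106) and 0.72 ± 0.22 SE in fold enrichment (limma adjusted p = 0.0847). In the wider fit PCA3 region 3, also over PRUNE2 exons, had a higher fold enrichment in MDV-R, at 2.696 to 3.12 in 3 C4-2B lists and 5.95 to 11.7 in 4 MDV-R lists (1.25 ± 0.25 SE, limma adjusted p = 0.0129). The intronic PCA3 region 5 was lower in IP tags there (-1.84 ± 0.17 SE, limma adjusted p = 0.000303), at 55.7 to 75.3 CPM in 3 C4-2B lists and 14.4 and 20.2 in 2 MDV-R lists. Summits in an exon of PCA3 were found at 2 places, that of PCA3 region 2, called in a single MDV-R list at 24.5 CPM, and 1 within PCA3 region 4, with a summit in 3 C4-2B lists and 1 MDV-R list at 74.0 to 157.5 CPM.

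MALAT1 region 1 had the highest median IP level of the called lncRNA regions, and the MALAT1 regions had the lowest median fold enrichments. MALAT1 region 1 held 365, 418 and 416 CPM in C4-2B replicates 2 to 4 and 399.5, 441, 359 and 379 in MDV-R replicates 1 to 4. The background was 684, 733 and 877 times the library average in C4-2B and 350.4, 329.6, 516 and 307 in MDV-R, so every MDV-R value was below every C4-2B value. Fold enrichment was 1.60, 1.71 and 1.42 in C4-2B and 3.40, 3.98, 2.08 and 3.68 in MDV-R, again without overlap.

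Those fold enrichments sat between the 0.01 and the 2.39 percentile of their own lists. In the wider fit the centred log2 difference was 0.77 ± 0.25 SE in fold enrichment (limma adjusted p = 0.111), 0.01 ± 0.11 SE in IP tags (limma adjusted p = 0.962) and -0.60 ± 0.24 SE in background (limma adjusted p = 0.15), for 3 against 4 lists, so none passed the test. NEAT1 region 1 held 109, 112 and 174 IP CPM in C4-2B replicates 2 to 4 and 199, 191, 180.1 and 182 in MDV-R replicates 1 to 4. The values of C4-2B replicates 2 and 3 were those of the site near position 173 and the others those of the site near 1589, so the difference in the wider fit (0.58 ± 0.15 SE, limma adjusted p = 0.0159) compares unlike sites. At the 1589 site alone the IP level was 139, 161 and 174 CPM in C4-2B replicates 2 to 4, below all 4 MDV-R values, and higher in MDV-R by 0.31 ± 0.10 SE (limma adjusted p = 0.0381). The fold enrichment there was 2.92 to 3.17 in C4-2B and 3.41 to 6.28 in MDV-R and did not pass (0.53 ± 0.25 SE, limma adjusted p = 0.294).

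In NORAD and the exonic regions of TUG1 no line difference in IP tags passed the test. NORAD region 1 held 144, 200.1, 196 and 192 CPM in C4-2B replicates 1 to 4 and 194, 182, 179 and 188 in MDV-R replicates 1 to 4, with a log2 difference of -0.05 ± 0.08 SE (limma adjusted p = 0.624). Its fold enrichment was 3.19, 7.92, 6.48 and 5.75 in C4-2B and 8.86, 11.3, 8.10 and 22.8 in MDV-R. The lines did not overlap, but after centring the log2 difference of 0.67 ± 0.26 SE did not pass (limma adjusted p = 0.184), nor did the background (-0.61 ± 0.29 SE, limma adjusted p = 0.191). Without centring the fold enrichment difference was 1.07 ± 0.36 SE and did not pass either (limma adjusted p = 0.0588).

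TUG1 region 2, at position 2167, had the highest median fold enrichment of the lncRNA regions. It was 7.84, 10.6, 13.9 and 9.08 in C4-2B replicates 1 to 4 and 21.1, 24.2, 10.4 and 16.4 in MDV-R replicates 1 to 4, between the 57.8 and the 93.9 percentile of the lists. The lines overlapped at MDV-R replicate 3, and neither fold enrichment (0.36 ± 0.25 SE, limma adjusted p = 0.487) nor IP tags (0.05 ± 0.09 SE, limma adjusted p = 0.649) passed. TUG1 region 4 gave 0.20 ± 0.24 SE (limma adjusted p = 0.729) and 0.16 ± 0.10 SE (limma adjusted p = 0.220) for the same measures, and at the site near position 3581 alone 0.51 ± 0.23 SE (limma adjusted p = 0.266) and 0.02 ± 0.07 SE (limma adjusted p = 0.856). TUG1 region 1, over the MORC2 exon, was higher in MDV-R in IP tags (0.25 ± 0.08 SE, limma adjusted p = 0.0247), a call that was lost at a single summit site (2 C4-2B and 4 MDV-R lists, limma adjusted p = 0.0802), with replicate numbers as a block (limma adjusted p = 0.0519), without centring (limma adjusted p = 0.107) and without C4-2B replicate 1 or 2 or MDV-R replicate 2 or 3 (limma adjusted p = 0.0506 to 0.0724).

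GAS5, a host of small nucleolar RNAs, held no region, and the nearest merged region lay 1115 nt away. The nearest to PCGEM1 lay 355032 nt away. The canonical transcripts of GAS5 and PCGEM1, of 768 and 1590 nt, contain 5 and 8 GGAC sequences, or 6.51 and 5.03 per kb. Among the genes with called regions the canonical transcripts ran from 1.26 per kb in PCA3 to 7.36 in KCNQ1OT1, with 2.40 in MALAT1, 3.33 in NORAD and 6.62 in PCAT1. No region summit lay on the canonical transcripts of KCNQ1OT1 and PCAT1. Over the longest transcripts of these genes the range was 1.51 per kb in PCAT1 to 6.53 in PVT1, with 3.11 in KCNQ1OT1. The longest GAS5 transcript held 1.91 per kb, and that of PCGEM1 had the same 5.03. The lists hold no value for a gene without a peak, so the RNA level of PCGEM1 and GAS5 was not measured here. Of 7 other snoRNA host genes, SNHG7 and SNHG16 held regions in their exons called in all 8 lists, and SNHG1, SNHG3, SNHG12, ZFAS1 and EPB41L4A-AS1 held none.

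Of 14 other cancer-linked lncRNA genes, 8 held a region with its summit in their exons, and FTX, LINC00963 and HOXA11-AS held such a region in all 8 lists. HOTAIR, H19, MEG3 and MIR17HG held none. Among genes of proteins that bind these lncRNAs, SFPQ, PUM2, HNRNPC and YTHDC1 held an exonic region, none of them called in all 8 lists and the SFPQ region called in no list. YTHDC1, the nuclear m6A reader, held 4 regions, of which 1 was called in 3 C4-2B and in 4 MDV-R lists.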

How the data were processed

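The members and comparison lists were chosen with earlier results of these data known. Per the study's methods, the authors aligned reads to hg38 with GENCODE v39 using STAR 2.7.0, removed duplicate and multiply mapped reads (SAMtools 1.10), and called peaks per replicate over input with MACS2 3.0.0a6 (extension 100 nt, genome size 300 Mb). The deposited peak lists give the ratio of IP to local background (fold enrichment), −log10 p-values and −log10 q-values, and a score derived from q. The deposited merged regions have no values. Read counts per region were not analysed here.

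IP tags and background at each summit were solved from the fold enrichment and Poisson p-value, with at least 99.99% of peaks of a list solved and the code tested on simulated data. CPM uses the recovered depth of 863500 to 1206000 IP tags, and the precision rests on tag counts at single summits. Genes and exons come from GENCODE v44 (GRCh38), sequence from hg38. The strongest peak by −log10 p stood for a region in a list. Tests were limma 3.58.1 (R 4.3.3) with Benjamini-Hochberg adjustment over all regions called in all 8 lists, Fisher's exact test, and an exact permutation test, with a threshold of 0.05. All 10 genes were named. Regions called in all 8 lists, or in 4 lists of a line and at most 1 of the other, were described by value. MALAT1, NEAT1, KCNQ1OT1 and further regions were added after their values were seen. Alternatives were stricter peaks, equal list sizes, overlap, exon-only regions, an own union, other scaling, a replicate block, pseudocount, peak choice, and leaving out each library, with 1 summit site per region (summits under 150 nt apart joined, the site in most lists kept) added after the data were seen.

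Replicate numbers shared by the lines did not pair the samples, with correlations of same-numbered deviations in log2 fold enrichment from -0.0749 to 0.0251. Some items of the comparison lists and a sequence are not reported here.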

Additional observations from a re-analysis of the deposited data

Results flagged for a closer look

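In 96 groups of 4 values, 11 held a lone value far from the other 3 by the gap over the range of the group, and chance gives about 1 in 20 groups. MDV-R replicate 3 accounted for 5 of them: NEAT1 region 1 fold enrichment was 3.41 (others 5.85 to 6.28) and its local background 156.4 (84.1 to 95.4), TUG1 region 3 background was 45.04 (14.5 to 18.2), PCA3 region 4 background was 43.3 (15.4 to 18.6), and the share of its list inside the lncRNA spans was 0.143% (0.105% to 0.111%). C4-2B replicate 1 was low in IP CPM of NORAD region 1, at 144.2 (192 to 200.1), and in peaks with the summit in an exon of these lncRNAs, at 10 (22 to 23). PVT1 region 6 fold enrichment was 10.1 in C4-2B replicate 3 (4.20 to 5.13), and PCAT1 region 1 fold enrichment was 17.6 in C4-2B replicate 4 (6.18 to 7.48). In MDV-R replicate 1, KCNQ1OT1 region 5 fold enrichment was 6.70 (11.6 to 12.2) and PCA3 region 3 IP CPM was 65.5 (74.0 to 75.4).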

How the results depend on the processing

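Regions called in 1 line only numbered 1, with 0 at a −log10 q of at least 5, 0 with lists of equal size, 0 with exonic summits only and 2 with an own union of the lists (1 to 3 leaving out each library). Regions called in all 8 lists numbered 10, with 6 exonic (10 to 17, the highest without C4-2B replicate 1). The single changed fold enrichment became 0 with equal lists, 0 with quantile normalization, 0 with exonic summits and 2 with at least 2 lists per line (0 to 1 leaving out libraries, kept without MDV-R replicate 3; without C4-2B replicate 1, where 17 regions were testable, the 1 that passed was not PCA3 region 4). The 7 changed IP levels became 4 with equal lists and 3 exonic (5 to 9), and the 4 changed backgrounds became 2 and 2 (3 to 5). The difference in peaks per list of -0.75 became 0.5 for exonic summits (-6.83 to 2.17). At 1 summit site per region the changed fold enrichments numbered 0. Equal lists left 7 testable regions and exonic summits 6. PCA3 region 4 was still tested with equal lists (limma adjusted p = 0.0694), and the cause of that change and of the quantile one was not tested. With replicate numbers as a block, the count for fold enrichment was 1, for IP tags 5 and for background 4, and the paired difference in peaks was -0.75 (exact sign-flip p = 0.875, smallest possible 0.125). Over all regions the block called 397 higher and 390 lower backgrounds against 555 and 642 without it. The single-region differences that changed sign had not passed the test. Without centring PCAT1 region 12 fold enrichment was 0.13, PVT1 region 6 fold enrichment 0.40, NORAD IP tags 0.0327, TUG1 region 4 background -0.40 (-0.42 at 1 summit site) and PCAT1 region 1 background -0.16. NORAD IP tags were 0.00688 with quantile normalization and PCAT1 region 1 fold enrichment -0.0125 with equal lists. Leaving out libraries gave -0.10 to 0.35 for PCAT1 region 1 fold enrichment, -0.19 to 0.21 for PVT1 region 6 fold enrichment, -0.19 to 0.26 for TUG1 region 4 background and -0.00973 to 0.519 for PCAT1 region 1 background. DRACH in place of GGAC gave 87%, and the longest transcripts held 21 region summits against 9 for the canonical ones. Depth limits the weak KCNQ1OT1 and intronic PCAT1 regions, which rest on few tags per summit.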
